A study of Mus musculus with 4 samples.

Results

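*Six3*, *Dlx6*, *Irs4* and *Slit1* are 4 genes of forebrain development or of the hypothalamus that were assigned a peak of the LIM-homeodomain protein LHX5 in Neuro2a cells. They were chosen by measured values, namely the presence of a peak in the LHX5-FLAG list that names them as its nearest downstream gene, together with their entry as changed genes of the *Lhx5* mutant in the study's supplementary table. Having a peak is therefore how they were picked and not a finding. By that table *Six3*, *Dlx6* and *Irs4* were lower in the mutant and *Slit1* was higher, in embryonic mamillary neuroepithelium. They are 4 of the 511 genes assigned a peak in the LHX5-FLAG list. Of the 42 genes assigned one in the FLAG-only list, from cells that carried just the tag, 0 are among these 4. Those 42 make up 0.189% of the 22238 protein-coding genes, so a 0 for 4 genes does not set them apart. Each of the 4 has 1 peak, among 545 LHX5-FLAG peaks and 56 FLAG-only peaks in all. The members share neither a protein family nor a locus, and lie on chromosomes 17, 6, X and 19.

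The study searched for direct targets of LHX5 by ChIP-Seq, in which an antibody recovers the DNA that a protein was fixed to, for sequencing. Of the 4 libraries, each of 2 kinds of cell gave 1 made with an anti-FLAG antibody and 1 from input DNA, so each condition has 1 library and no value below has a replicate. All came from Neuro2a, an established mouse neuroblastoma line whose labels give the strain C57BL/6. The first kind of cell carried *Lhx5* with a FLAG tag at the C-terminus of the protein, under the Tet-On system, in stably transfected clones treated with doxycycline for 24 h, and the second carried a construct for the FLAG tag only, and whether it also received doxycycline is not stated. The protein was therefore supplied from a transgene in a tumour line, and not measured at its own level in embryonic hypothalamus. The paper describes the line as one known to express *Lhx5* itself. It also states that induction was regulated so that the level resembles the natural one. No expression was measured in these libraries, so whether the 4 genes are active in these cells is not known from them. The lists hold positions and distances without read numbers, heights or scores, depth is unknown, and the intervals given with shares are exact binomial intervals at the 95% level that cover counting error only.

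LIM-homeodomain proteins join LIM domains, which hold cofactors such as LDB1, to a homeodomain that reads short AT-rich sequences with a TAAT core. They pattern the neural tube and give neurons their identity, and LHX5 is known for its part in the forebrain, the mamillary region of the hypothalamus included. Such factors often act through enhancers far from the promoter of a gene, and a peak is linked to a gene by position alone. Of the 4 genes, *Six3* and *Dlx6* encode homeodomain transcription factors themselves, *Irs4* encodes an adaptor that carries signals from insulin-type receptors into the cell, and *Slit1* encodes a secreted ligand of ROBO receptors that repels growing axons.

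The sequences under the 4 peaks are shown whole because they differ in kind. They were read 5′ to 3′ on the plus strand of the mouse assembly mm9 (NCBIM37), at chr17:85894621-85894818 for *Six3*, chrX:138297361-138297541 for *Irs4*, chr6:6719240-6719401 for *Dlx6* and chr19:41830666-41830806 for *Slit1*. Capitals mark the LHX5 motif, written as CTAATTAA or TTAATTAA and searched on both strands.
Six3: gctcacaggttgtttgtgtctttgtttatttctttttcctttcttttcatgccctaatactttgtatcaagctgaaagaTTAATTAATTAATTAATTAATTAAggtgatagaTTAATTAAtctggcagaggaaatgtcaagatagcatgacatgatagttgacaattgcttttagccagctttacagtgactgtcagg
Irs4: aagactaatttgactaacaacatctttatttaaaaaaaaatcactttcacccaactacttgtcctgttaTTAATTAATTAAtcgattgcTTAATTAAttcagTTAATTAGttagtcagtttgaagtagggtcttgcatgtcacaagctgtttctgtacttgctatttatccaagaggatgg
Dlx6: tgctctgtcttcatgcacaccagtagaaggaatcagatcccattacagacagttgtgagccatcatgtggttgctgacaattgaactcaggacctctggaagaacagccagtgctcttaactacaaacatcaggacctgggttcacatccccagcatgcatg
Slit1: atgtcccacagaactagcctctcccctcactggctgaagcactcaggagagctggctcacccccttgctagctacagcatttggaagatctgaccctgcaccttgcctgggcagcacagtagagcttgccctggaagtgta

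These letters hold the contrast that runs through the rest of the values. The peaks of *Six3* and *Irs4* carry blocks of TTAA repeats near their middle in AT-rich surroundings, whereas those of *Dlx6* and *Slit1* hold no site. The motif was derived by the study from the same list of peaks, so its counts below describe the members and test nothing. The study shows it as a weight matrix, and the exact words searched here need not mark the same peaks.

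The 4 peaks were short, ordinary in length for the list and outside annotated genes. The *Six3* peak spans 198 bp, the *Irs4* peak 181 bp, the *Dlx6* peak 162 bp and the *Slit1* peak 141 bp, beside a median of 173 bp over the 545 peaks. In order of length from the longest they ranked 190, 239, 352 and 481. Peaks outside genes made up 306 of the 545, or 56.1%. The *Irs4* peak was the farthest from its gene, with its midpoint 137645 bp upstream of the start. The *Six3* peak lay 118228 bp upstream and the *Dlx6* peak 94013 bp upstream, so that these 3 distances are close to the list's median of 95424 bp. The *Slit1* peak was much nearer, at 12581 bp, and 85 of the 545 peaks, or 15.6%, lay as near to their gene or nearer.

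*Six3* is a homeobox gene of the sine oculis family that is needed for the anterior forebrain and the eye. It lies on the plus strand of chromosome 17 (chr17:86012948-86031153, ENSMUSG00000038805.7). Between its peak and its start the annotation holds the antisense non-coding gene *Six3os1*, whose nearest edge is 105173 bp from the peak. On the other side the protein-coding gene *1700106N22Rik* ends 37142 bp from the peak. The start of *Six2*, the neighbouring gene of the same family, is 192874 bp from the midpoint of the peak, farther than that of *Six3*. No other LHX5-FLAG peak was close, since the nearest one lay 1415218 bp away and was assigned to *Haao*, and the nearest FLAG-only peak was 39163466 bp away.

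The *Six3* peak had 6 motif sites, all TTAATTAA, which reads the same on both strands. Of these, 5 overlap in steps of 4 bp within 1 run of TTAA repeats 25 bp long, and the last follows apart from it, with its start 17 bp after that of the site before. Their centres lay from -16 to 17 bp of the midpoint of the peak, and 4 sites remained when overlapping ones were counted once. GC content was 32.3%. At least 6 sites were present in 16 of the 545 peaks, or 2.94% (1.69% to 4.72%), which placed the *Six3* peak at rank 7 by sites, tied with the other peaks of 6. Only 9 of the 545 peaks, or 1.65%, had a TTAA run of 25 bp or longer.

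*Irs4*, on the minus strand of chromosome X (chrX:138145541-138159806, ENSMUSG00000054667.7), encodes an insulin receptor substrate known from the hypothalamus. Its peak lies in a gene-poor stretch between *Irs4* and *Gucy2f*, whose nearest edge is 218162 bp beyond the peak. The annotation of this stretch is mostly pseudogenes. *Hmgn2l6*, a pseudogene on the far side of the peak, has its start 7496 bp from the midpoint and is the nearest annotated start of any gene type, while *Irs4* is the nearest of a protein-coding gene. Another LHX5-FLAG peak lay 243772 bp away and was assigned to *Nxt2*, and no FLAG-only peak lay on this chromosome.

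The *Irs4* peak had 4 sites, 3 of them TTAATTAA and 1 TTAATTAG, which is CTAATTAA on the minus strand. The first pair overlaps in a TTAA run of 14 bp, and the starts of successive sites were 4, 16 and 13 bp apart. Their centres lay from -17.5 to 15.5 bp of the midpoint, and GC content was 30.4%. At least 4 sites were present in 76 of the 545 peaks, or 13.9% (11.1% to 17.1%), and a run of 14 bp or longer in 70, or 12.8%. The *Irs4* peak was thus less extreme within the list than that of *Six3*, although both hold their sites in the central part of the peak.

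*Dlx6*, on the plus strand of chromosome 6 (chr6:6813334-6818568, ENSMUSG00000029754.7), is a distal-less homeobox gene that forms a pair with *Dlx5* and is used by inhibitory neurons of the ventral forebrain. Its peak lies between *Shfm1*, whose nearest edge is 190588 bp away, and the antisense non-coding gene *Dlx6os1*, whose end is 50788 bp away and whose start, at 100212 bp, is slightly farther from the peak than that of *Dlx6*. The start of *Dlx5* is 112764 bp away. The peak had 0 motif sites, 0 copies of the shorter TAATTA and 1 TAAT, at a GC content of 48.1%. The nearest other LHX5-FLAG peak, assigned to *Ica1*, lay 3164499 bp away.

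*Slit1*, on the minus strand of chromosome 19 (chr19:41674747-41818155, ENSMUSG00000025020.5), is a long gene of 143409 bp. Its peak lies in a narrow gap between its start and the end of *Arhgap19*, whose nearest edge is 10275 bp from the peak. A 7SK RNA gene between the peak and *Slit1* has its start 11442 bp from the midpoint, slightly nearer than that of *Slit1*. The peak had 0 motif sites, 0 TAATTA and 0 TAAT, and its GC content of 56.7% ranked 30 of 545. The nearest other LHX5-FLAG peak, assigned to *Foxd4*, lay 16821374 bp away.

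Motif sites were thus present in 2 of the 4 members, beside 198 of the 545 LHX5-FLAG peaks, or 36.3% (32.3% to 40.5%), and 1 of the 56 FLAG-only peaks, or 1.79% (0.0452% to 9.55%). With 4 members a count of 2 cannot be told from the share of the whole list. The shorter TAATTA, which is inside both forms of the motif and homeodomain proteins of many families recognize, gave the same 2 members, beside 42.4% of LHX5-FLAG peaks and 8.93% of FLAG-only peaks. A TTAA run of at least 12 bp was present in the same 2, beside 19.4% of LHX5-FLAG peaks and 0 of the 56 FLAG-only peaks. The shorter core TAAT separated the lists in the opposite order, with 71.4% of LHX5-FLAG peaks and 87.5% of the FLAG-only peaks, which were longer, with a median of 276.5 bp.

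Base composition moved with the sites. Over the list, the 198 peaks with a site had a median GC content of 32.5% and the 347 without one a median of 46.9%. *Six3* at 32.3% and *Irs4* at 30.4% were near the first of these medians, *Dlx6* at 48.1% was near the second, and *Slit1* at 56.7% was above the upper quartile of 51.9% of peaks without a site. The 198 peaks with a site held a median of 3, with quartiles of 2 and 4 and a maximum of 9, so that *Irs4* was at the upper quartile and *Six3* above it. The part of base composition in the number of sites was not tested.

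**Figure D1:**
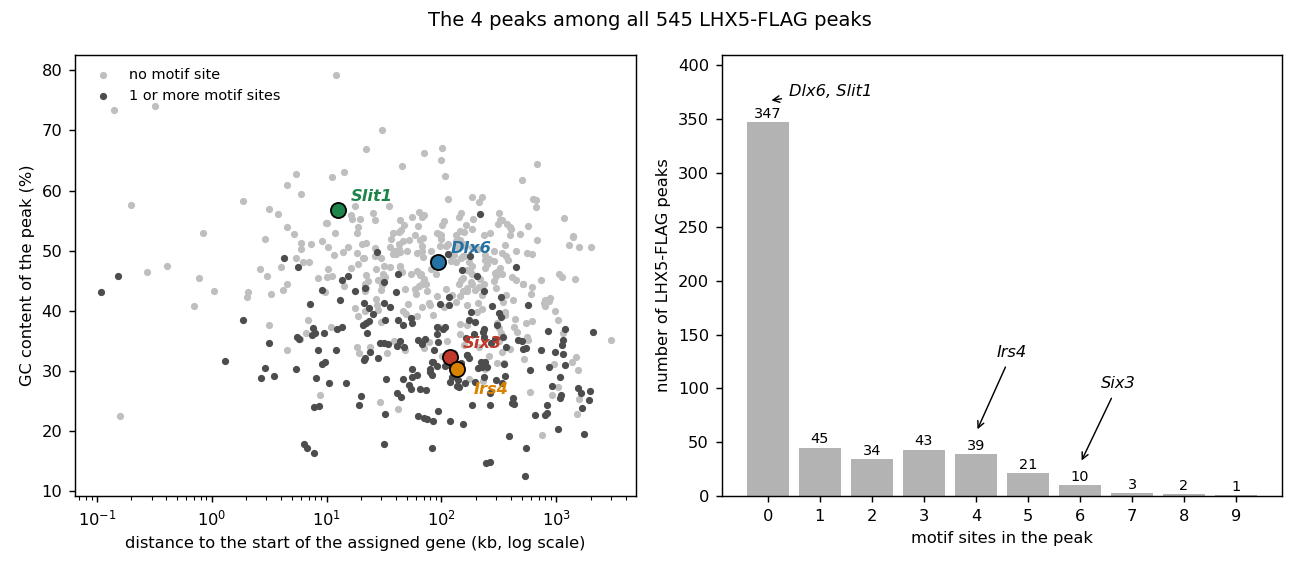
The left plot gives, for each of the 545 LHX5-FLAG peaks, the distance to the start of its assigned gene in kb on a log axis and its GC content in percent, with dark points for peaks that hold the motif and coloured points for the 4 members. The right plot counts peaks by the number of motif sites, with 347 peaks at 0, where *Dlx6* and *Slit1* are, 39 peaks at 4 with *Irs4*, and 10 peaks at 6 with *Six3*.

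The DNA beside the peaks was searched in the same way. Of the 8 windows that match the 4 peaks in length and begin 10000 bp from their edges, 0 held a site, beside 11 of 1086 such windows around all LHX5-FLAG peaks, or 1.01% (0.507% to 1.81%). At 1000 bp, 1 of the 8 windows, upstream of the *Six3* peak, held a single site, and at 50000 bp 0 did. Around *Six3*, GC content was 46.0% and 51.0% in the windows at 10000 bp, beside 32.3% in the peak, but it was 31.8% in the window 1000 bp before the peak that held the single site, and 51.5% in the one after it. Around *Irs4* it was 38.7% and 36.5%, beside 30.4%.

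Over 250000 bp on either side of the start of each gene, single motif sites were common and dense groups were rare. The *Six3* locus held 55 sites, or 11.0 per 100 kb, close to the 11.5 per 100 kb of the whole genome. Of these, 6 were in the peak, which is 10.9% of the sites in 0.0396% of the span. The other 200-bp windows of the *Six3* locus held at most 2 sites. The *Irs4* locus held 83 sites, 4 of them in the peak, and at most 3 in any other 200 bp. For both genes the window on the peak ranked first of 2500 by number of sites, and it still did with windows of 500 bp or with the span between the flanking protein-coding genes.

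The loci of *Dlx6* and *Slit1* had sites as well, but not under the peak. At *Dlx6* there were 65 sites, in 62 of the 2500 windows and at most 2 in any 200 bp. At *Slit1* there were 40 sites in 33 windows, the lowest number of the 4 loci, and up to 5 of them fell within 200 bp. In the 22925 bp between *Slit1* and *Arhgap19*, where the peak lies, there were 2 sites.

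**Figure D2:**
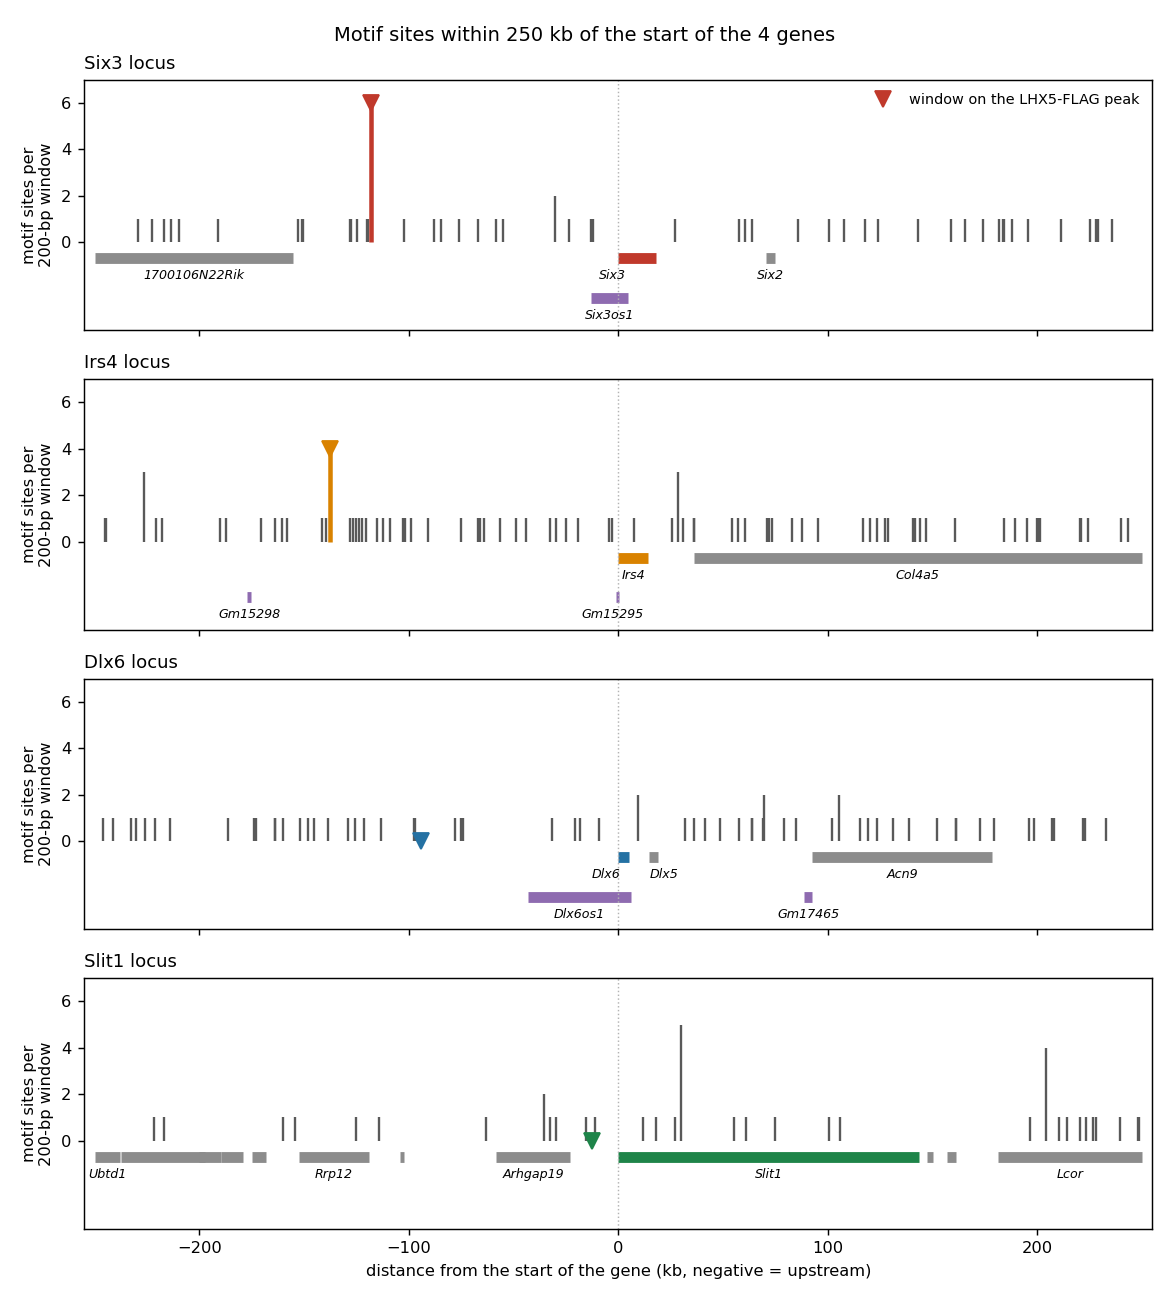
Each plot covers 250 kb on either side of the start of 1 gene, with the distance in kb on the horizontal axis (negative is upstream) and the number of motif sites per 200-bp window on the vertical axis. Grey lines are windows away from the peak, the triangle marks the window on the LHX5-FLAG peak, and bars below show protein-coding genes (grey, the member in colour) and non-coding genes (purple). The peak stands at 6 sites for *Six3* and 4 for *Irs4*, the highest windows of their loci, and at 0 for *Dlx6* and *Slit1*.

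The richest group of sites at *Slit1* lay inside the gene and had no LHX5-FLAG peak. It is a TTAA run of 25 bp with 5 sites in an intron, 29.9 kb downstream of the start, as long as the run in the *Six3* peak. Both are shown with 20 bases on either side, with the run in capitals, at chr17:85894679-85894743 for the run in the *Six3* peak and at chr19:41788272-41788336 for the one in the *Slit1* intron (plus strand, mm9).
Run in the Six3 peak: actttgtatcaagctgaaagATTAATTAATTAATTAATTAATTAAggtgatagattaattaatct
Run in the Slit1 intron: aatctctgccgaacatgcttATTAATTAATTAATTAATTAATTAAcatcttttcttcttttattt

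The 25 bases of the runs are the same, and the sequence beside them is not. The *Six3* run is followed by a further site and the *Slit1* run is not. In the 200 bp around each, GC content was 31.0% at *Six3* and 36.5% at *Slit1*, and 82.9% and 68.5% of the 20-base words occurred at 1 place of the genome. A second run without a peak at this locus, 20 bp long with 4 sites, lay in an intron of *Lcor* (chr19:41613952-41613971). Across the 4 loci there were 9 runs of at least 12 bp, of which 2 were in an LHX5-FLAG peak, those of *Six3* and *Irs4*. The longest of the 3 others at *Irs4* was 17 bp with 3 sites, at -226 kb from the start. In the whole genome 923 runs of at least 25 bp were found, and 9 of them, or 0.975%, were in LHX5-FLAG peaks. Of the 6721 runs of at least 14 bp, 78 were in such peaks, or 1.16%, and 0 were in FLAG-only peaks. The lists give no read numbers for runs without a peak, and what sets them apart from those with one was not tested.

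The 4 peaks also differed in how often their sequence recurs in the genome, which bears on how surely short reads can be placed there. The *Irs4* peak had few copies, with 87.7% of its 20-base words at 1 place, its most frequent word at 12 places, and 0 other places that match at least 50% of its length at 80% identity or more in BLAST. For 70.2% of its bases BLAST found no match elsewhere. The *Six3* peak also had 0 such places, with 82.7% of words at 1 place, but its most frequent word occurred at 6170 places. BLAST at its E-value limit found 22 partial matches, which covered at most 46.0% of the peak, so it does not count most recurrences of such short words.

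*Dlx6* was the opposite case. Its peak had 73863 other places at the same limits, and its median base was covered by 101379 matches elsewhere. At least 1000 matches covered 127 of its 162 bases, and only 8 bases had none. Just 34.3% of its 20-base words occurred at 1 place, the median word occurred at 6 and the most frequent at 18463. With identity of at least 90% the number of other places was 307, so that most of the 73863 matched this peak less closely. The copies were not compared with each other. Whether reads were placed at this peak uniquely is not stated by the methods, and the part of repeated sequence in the *Dlx6* peak was not tested.

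*Slit1* stood between these. Its peak had 62 other places at 80% identity and 0 at 90%, with a best identity of 85.7% among them. The median base was covered by 723 partial matches, yet 69.7% of the exact 20-base words occurred at 1 place, and the most frequent at 215. For the *Slit1* peak, copies were therefore many by inexact match and few by exact words.

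Over the whole list, peaks with a median word at 10 or more places numbered 88 of 545, or 16.1%, and 14 of the 56 FLAG-only peaks, or 25%. None of the 4 members was in this class, with median words at 1 place for *Six3*, *Irs4* and *Slit1* and at 6 places for *Dlx6*, which ranked 94. The motif was present in 43.8% of the 393 peaks whose median word had 1 place, in 23.4% of the 64 peaks with 2 to 9 places, and in 12.5% of the 88 peaks with 10 or more. *Dlx6* belongs to the middle class and has no site, and *Slit1* belongs to the first and has none either.

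**Figure D3:**
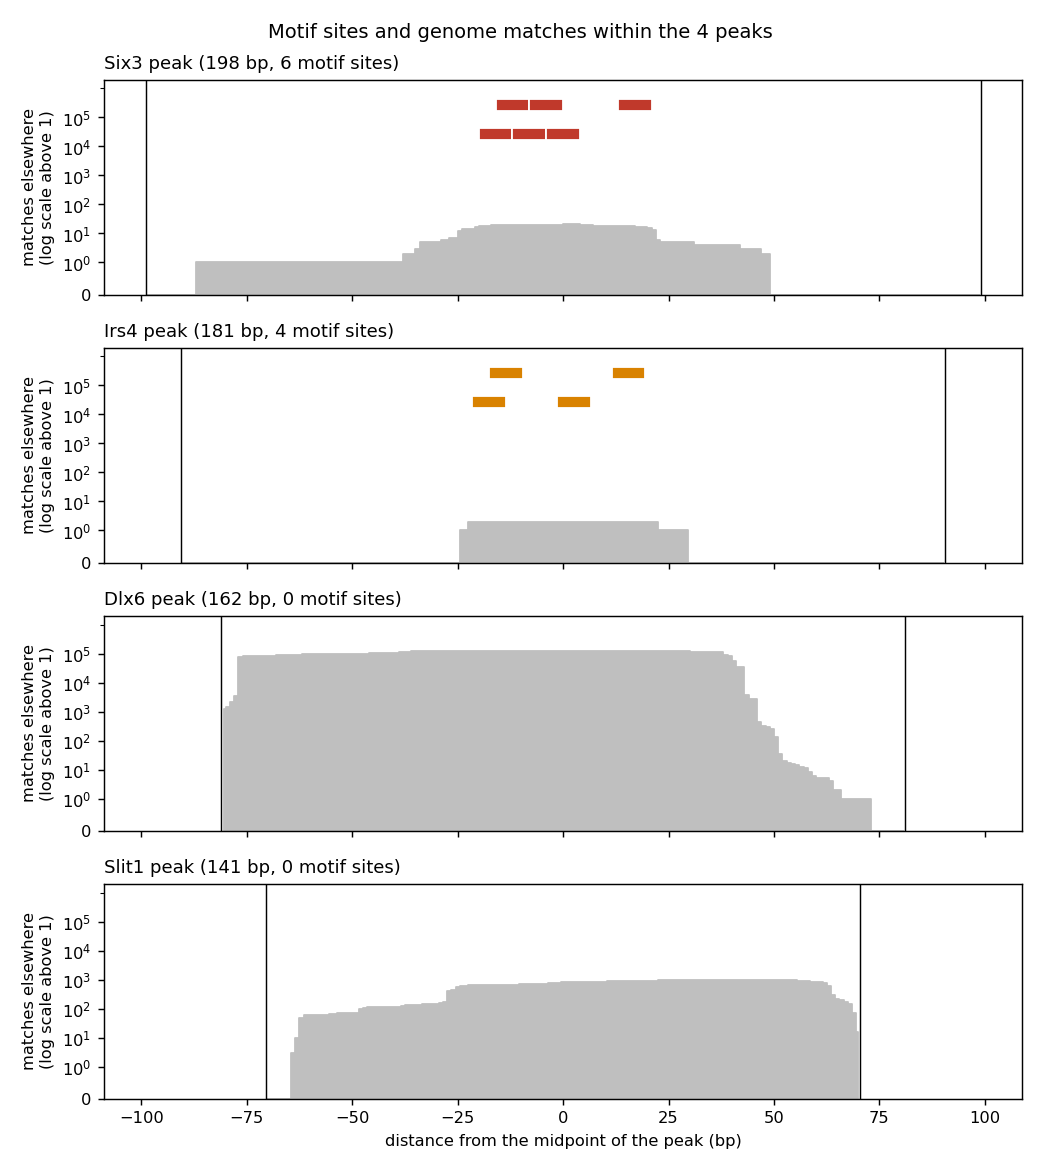
Each plot shows 1 peak, with the distance from its midpoint in bp on the horizontal axis and vertical lines at its edges. Coloured blocks are motif sites, set at 2 heights so that overlapping ones can be told apart, and the grey area is the number of BLAST matches elsewhere in the genome over each base, on an axis that is logarithmic above 1. Sites crowd the middle of the *Six3* and *Irs4* peaks, where BLAST matches reach 22 and 2 (exact 20-base words of these peaks recur at up to 6170 and 12 places), whereas the *Dlx6* peak has up to 126399 matches and the *Slit1* peak up to 1004.

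Likeness between peaks was measured as the share of 8-base words, on either strand, that 2 peaks have in common among all their words (the Jaccard index), over 538 LHX5-FLAG peaks of at most 1000 bp. The peaks most like that of *Six3* were assigned to *Alg10b*, at an index of 0.0340 with 10 shared words, and *Nudcd1*, at 0.0328 with 8, beside a median of 0.00672 over all peaks. They hold 2 and 4 motif sites. The longest stretch that the *Six3* and *Alg10b* peaks share is gattaattaattaat, part of the TTAA run. Nearest to *Irs4* were the peaks of *Zfyve26*, at 0.0608 with 18 shared words, and *Alg14*, at 0.0508 with 13, which hold 3 and 8 sites.

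For each of the members without a site the 2 nearest peaks had none either, although those at ranks 3 and 4 for *Dlx6*, assigned to *Samhd1* and *Rps13* and named after their values were seen, hold 6 and 4. The *Dlx6* peak was most like those of *4921523A10Rik*, at 0.0538, and *Nup107*, at 0.0476, and it shares the 15 bases tcaggacctctggaa with the latter. Those of *Poli* and *Clasp2* were most like the *Slit1* peak, at 0.0305 and 0.0278, each with 8 shared words. Among the members themselves, *Six3* and *Irs4* had an index of 0.0152 with 5 shared words, and the same 15 bases as with *Alg10b* were their longest shared stretch. Yet *Irs4* came only at rank 95 for *Six3*, so that many other peaks share more with it. *Dlx6* and *Slit1* had an index of 0.0141 with 4 shared words, and *Irs4* shared 0 words with either of these.

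Other genes of the same families and pathways were looked up in both lists, and few had a peak. The names looked up leave out *Foxb2*, a gene the study called a possible direct target of LHX5. Its LHX5-FLAG peak has 2 sites and lies 10416 bp from its start. Of 61 related genes, 2 were assigned an LHX5-FLAG peak, or 3.28%, beside 2.3% of the 22238 protein-coding genes, and 0 were assigned a FLAG-only peak, beside 0.189%. None of the 5 other DLX genes, the 6 genes of insulin receptor substrates and their receptors, or the 6 SLIT and ROBO genes had one. Both assigned genes were among the 39 forebrain and hypothalamic regulators. These are *Tbx3*, a T-box factor of the developing hypothalamus, with a peak of 1 site at 175850 bp, and *Lmo1*, a LIM-only protein that can compete for the cofactors of LIM-homeodomain proteins, with a peak of 2 sites at 21243 bp. The study had already named both as possible direct targets, so their peaks were known before the lookup. It drew on expression changes in the mutant, on ChIP-Seq peaks that hold its motif and on luciferase assays of the binding sites. A share of 2 in 61 is near the background given beside it and tests nothing. With a peak within 100000 bp of the start counted, assigned or not, 2 of the 61 genes had one as well, beside 4.69% of protein-coding genes. By the same rule 1 of the 61 had a FLAG-only peak, and the share over all protein-coding genes is not given for that list.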

How the data were processed

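For each anti-FLAG library the authors deposited 1 peak list, with positions and distances in bp. Reads had been aligned to mm9 by the authors using Bowtie. They called peaks against the input with MACS (M-FOLD 10, *p*-value cutoff 1e-05) and named the nearest downstream gene with PeakAnalyzer 1.4. The versions of Bowtie and MACS and the handling of repeated reads are not given in the sources used here. The 2 input libraries were not analysed here.

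Sequences were read from NCBIM37 and genes from GENCODE mouse release 1 (vM1). The deposited distance was recovered to within 1 bp, from a start of the gene named in the list, for 545 of 545 peaks. A new search for the nearest downstream gene found the same gene for 541 of 545 LHX5-FLAG peaks and 54 of 56 FLAG-only peaks. Motifs, TTAA runs of any phase, 20-base words on both strands and BLAST+ 2.17.0 matches (E-value at most 1e-05, no low-complexity filter) were counted with Python 3.11.15, pysam 0.24.0, pandas 2.3.3, scipy 1.17.1 and numpy 2.4.6. Figures were drawn with matplotlib 3.10.9. The motif and TTAA run searches, the downstream gene search, the longest shared stretches and the coding of 20-base words were tested on simulated data.

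Without replicates, no difference was tested. The members, related genes and comparisons were chosen with earlier results of these data known. Genes named are the members, genes next to their peaks, and related genes that were assigned a peak. Genes of the nearest other peak and of the 2 most similar peaks are named too. *Lcor*, *Samhd1*, *Rps13*, *Foxb2* and *Olig3* are named outside these rules. Results for some related genes are not reported here.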

Additional observations from a re-analysis of the deposited data

How the results depend on the processing

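Of the values recomputed under other settings, 52 stayed within the limits set for them, 10 moved and none reversed. Some of these 52 could not have moved, such as counts of 0 sites for *Dlx6* and *Slit1* in the central 100 bp or without overlaps. The number of sites in each peak was within 1.5 times its main value for all 4 members with TAATTA, with TTAATTAA alone (3 for *Irs4*), with starts counted from 0, in the central 100 bp, with 100 bp added on both sides, and without overlaps (4 for *Six3* and 3 for *Irs4*). Assignment depended on its rule. Within 100000 bp of the gene start 2 members kept their peak, *Dlx6* and *Slit1*, and by the nearest start of any gene type 2 did, *Six3* and *Dlx6*. The share of LHX5-FLAG peaks with a site was 42.4% for TAATTA. Beside the peaks, 1 window at 1000 bp held a site in place of 0. With assignments within 100000 bp, 1 related gene kept its peak. At 90% identity, a limit chosen after seeing the data like that on whole TTAA units, the other places were 307 for *Dlx6* and 0 for *Slit1*. With words of 6 bases, 0 of the 2 most similar peaks stayed the same for *Six3*, 1 for *Dlx6* and 0 for *Irs4*, so these names depend on word length.

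No paired analysis was possible because each condition has 1 library. The lists hold no read numbers, so peaks were neither ranked by strength nor called again.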

Other observations

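At the promoters, from 250 bases before to 50 after the start, RefSeq sequences of GRCm38.p6 were at hand for *Six3* and *Irs4*. Neither holds CTAATTAA or TTAATTAA, beside 1.32% of 32851 promoters, and neither holds TAATTA, beside 5.29%. TAAT is present at *Six3* and not at *Irs4*, beside 58% of promoters.

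The 2 related genes with an LHX5-FLAG peak within 100000 bp of the start were *Lmo1* and *Olig3*, a basic helix-loop-helix factor of the dorsal neural tube, with a peak at 70219 bp. *Olig3* was named after its values were seen.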
